A study of Homo sapiens with 24 samples.

Results

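The transcripts of 9 receptor tyrosine kinases and of the docking protein IRS1 were followed through 24 libraries of AGS cells, an established line from a human gastric adenocarcinoma. The 10 genes were taken by symbol from the deposited table: EGFR, ERBB2 and ERBB3 of the epidermal growth factor receptor family, the insulin receptor INSR, the type 1 insulin-like growth factor receptor IGF1R, IRS1, the hepatocyte growth factor receptor MET, and the fibroblast growth factor receptors FGFR2, FGFR3 and FGFR4. They are 10 of 23368 genes in the table, and all 10 passed the filter on low counts that left 13947 genes for testing. The genes were named as ones whose expression inhibition of PI3 kinase or MEK can relieve. In these libraries receptors moved in both directions, and IRS1 was not called higher in any treated group.

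The 6 groups had 4 biological replicates each and were harvested 24 h after treatment. The labels give the genotype of the cells as WT. The control received no inhibitor, and the labels do not say whether it received vehicle. PI103, which inhibits class I PI3 kinases and mTOR, was given at 0.7 µM, PD0325901, which inhibits the kinase MEK, at 0.035 µM, and (5Z)-7-oxozeaenol, which inhibits the kinase TAK1 and is called oxozeaenol from here on, at 0.5 µM. PI103 was also combined with oxozeaenol (0.35 µM and 0.25 µM) and with PD0325901 (0.35 µM and 0.0175 µM), so that the combinations held 50% of the concentration used when each inhibitor was given alone. All groups used 1 cell line, so the spread between replicates is that between cultures of that line.

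Receptor tyrosine kinases bind growth factors outside the cell and phosphorylate themselves and docking proteins inside it, which starts signalling through PI3 kinase, AKT and mTOR and through RAS, RAF, MEK and ERK. Both branches feed back on their own receptors: mTOR and its kinase S6K promote the breakdown of IRS1, and AKT holds FOXO transcription factors, which can induce receptor genes such as ERBB3, INSR and IGF1R, outside the nucleus. In gastric cancer, amplified ERBB2, MET, FGFR2 and EGFR are known as driver genes.

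The libraries held 38057638 to 84226380 counts in genes, and a member had between 590 and 16306 counts in a library. Summed over 6 epithelial markers, including EPCAM and keratins, the libraries had 5050 to 7930 counts-per-million (CPM, scaled by the TMM method). Leukocyte markers summed to 0.0501 to 0.322 CPM over 5 genes and endothelial markers to 0.103 to 0.437 CPM over 3 genes. Fibroblast markers summed to 8.14 to 34.2 CPM over 5 genes, nearly all of it from the collagen gene COL1A1. COL1A2 and DCN had 3 and 2 counts in all libraries together. The other 3 markers, COL1A1, COL3A1 and LUM, were tested. With PI103 1 was called higher and 1 lower, with PD0325901 3 and 0, and with oxozeaenol 1 and 1. The combination with oxozeaenol gave 1 and 1 and that with PD0325901 2 and 0, beside the shares of all genes given below. COL1A1 rose with PI103 from 14.8 ± 1.46 CPM to 32.96 ± 0.951 CPM (SD, n = 4 in each group). Its log2 fold changes against control, all called, were 1.15 with PI103 alone, 0.38 with PD0325901 alone, -0.77 with oxozeaenol alone, -0.65 in the combination with oxozeaenol and 0.58 in that with PD0325901, and its part in the receptor changes described here was not tested. The ERK-responsive genes DUSP6, SPRY4 and ETV5 were called lower in all 5 comparisons with control, where 25.2% to 32.6% of all genes tested were called lower. DUSP6 went from 132 ± 13.4 CPM to 3.61 ± 1.33 CPM with PD0325901 (SD, n = 4 in each group).

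With PI103, 6 members rose and 2 fell at an adjusted p under 0.05 by edgeR's quasi-likelihood test. Over all genes tested, 51.4% were called, 26.2% higher and 25.2% lower. FGFR3, ERBB3, IGF1R, INSR, ERBB2 and FGFR4 rose, by log2 fold changes from 0.21 to 1.51, while EGFR and MET fell. The call of FGFR4 was lost in some of the other fits, given below. The median log2 fold change of the 10 members was 0.43, against 0.02 over all genes. The 4 largest rises were those of FGFR3, ERBB3, IGF1R and INSR. RNA from a bulk culture does not tell fewer cells of a kind from less RNA per cell.

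With PD0325901, 4 members rose (FGFR3, FGFR4, ERBB2 and ERBB3) and 3 fell (MET, EGFR and IRS1). All genes tested were called in 58.6%, 28.7% higher and 29.9% lower, so that the share of members called was near the background. Their median was 0.12, against -0.02 over all genes. With oxozeaenol, 3 members rose (FGFR3, FGFR4 and ERBB2) and 3 fell (EGFR, IRS1 and MET), with 51.9% of all genes called, 25.7% higher and 26.1% lower, again near the members' share. The members' median was 0.08 and that of all genes 0.02.

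The combination of PI103 with oxozeaenol gave 7 members higher and 1 lower than control, where 55.6% of all genes were called, 27.7% higher and 27.9% lower. EGFR was the member that fell, and MET, which each of the single agents lowered, was higher. With PI103 and PD0325901 all 10 members were called, 6 higher and 4 lower, against 64.8% of all genes, 32.2% higher and 32.6% lower. The members' medians in the 2 combinations were 0.47 and 0.51, with all-gene medians of 0.02 and 0.005. The 5 comparisons share the 4 control libraries, so their agreement is not independent.

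Counted without a test, the 4 libraries of a treated group lay wholly outside the control range for 8 members with PI103, 7 with PD0325901, 6 with oxozeaenol, 8 in the combination with oxozeaenol and 9 in that with PD0325901. The same held for 48.9%, 49.0%, 42.2%, 52.6% and 56.9% of all genes tested, in that order.

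**Figure D1:**
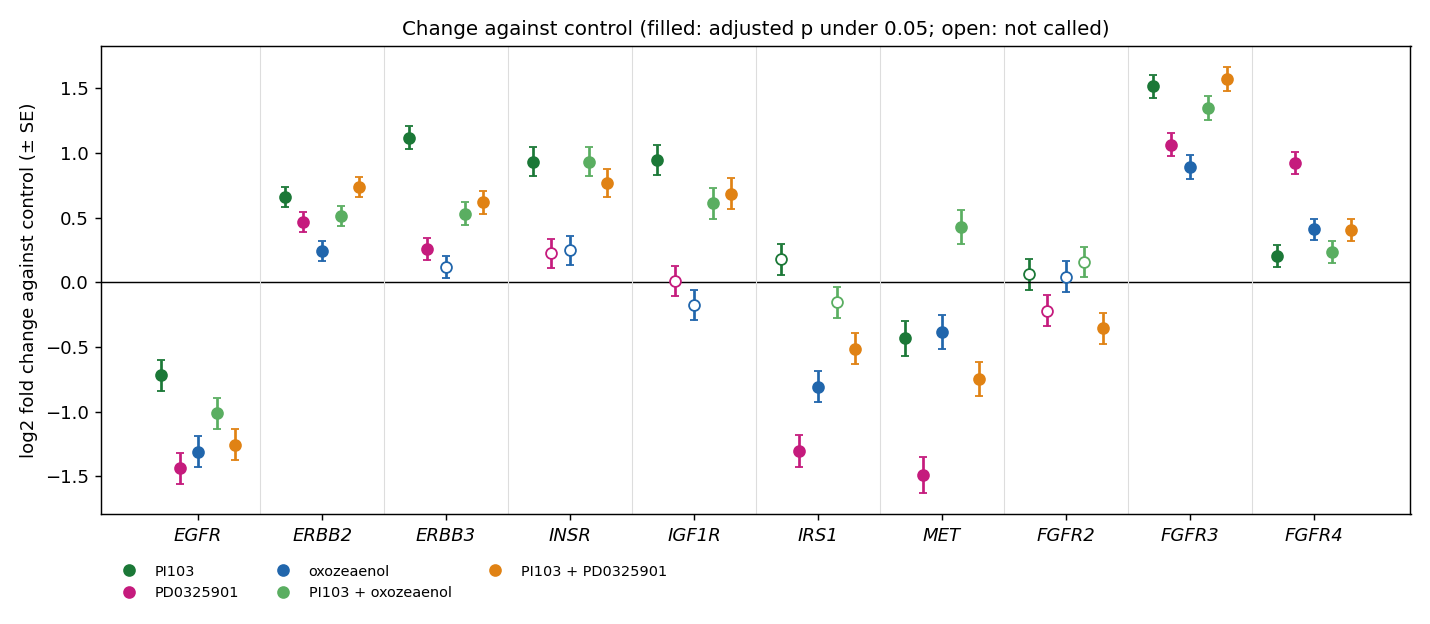
The log2 fold change against control (vertical axis, with SE) is plotted for each member and treatment, with filled points for an adjusted p under 0.05 and open points for genes not called. EGFR lies below 0 and ERBB2 and FGFR3 lie above 0 with every treatment, and MET lies above 0 with PI103 and oxozeaenol and below it with the other 4.

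The sequences before the transcription starts of INSR, IGF1R and FGFR3 are shown because these genes were among the 4 members with the largest rises with PI103. They are the 250 bases upstream of the start in the RefSeq annotation of GRCh38.p14, 5′ to 3′ in the direction of transcription, in lower case, with GC boxes (GGGCGG, or CCGCCC on the other strand) in capitals. None of these windows overlaps a GENCODE 29 exon of its own gene, and exons of other genes were not checked.

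INSR: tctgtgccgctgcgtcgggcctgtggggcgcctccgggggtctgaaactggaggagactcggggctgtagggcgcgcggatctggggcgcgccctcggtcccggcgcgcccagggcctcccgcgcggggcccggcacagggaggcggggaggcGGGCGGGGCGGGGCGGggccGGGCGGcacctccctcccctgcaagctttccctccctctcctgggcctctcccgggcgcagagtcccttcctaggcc

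IGF1R: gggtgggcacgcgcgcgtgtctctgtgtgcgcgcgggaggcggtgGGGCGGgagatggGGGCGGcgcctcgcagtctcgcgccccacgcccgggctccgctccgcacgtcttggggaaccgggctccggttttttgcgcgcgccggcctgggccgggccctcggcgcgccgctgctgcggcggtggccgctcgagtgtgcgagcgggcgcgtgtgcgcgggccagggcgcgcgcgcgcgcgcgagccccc

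FGFR3: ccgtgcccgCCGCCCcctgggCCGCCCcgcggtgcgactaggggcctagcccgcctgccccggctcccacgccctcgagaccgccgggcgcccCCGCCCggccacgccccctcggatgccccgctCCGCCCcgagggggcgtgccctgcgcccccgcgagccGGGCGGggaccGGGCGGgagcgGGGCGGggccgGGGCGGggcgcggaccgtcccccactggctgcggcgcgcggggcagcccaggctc

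The INSR window is chr19:7294415-7294664 on the minus strand, that of IGF1R is chr15:98648289-98648538 on the plus strand and that of FGFR3 is chr4:1793043-1793292 on the plus strand. They hold 4, 2 and 8 GC boxes, overlapping copies included, and their GC content is 78.4%, 81.2% and 86.8%. The median GC content of the same window over 35116 promoters of the table is 58.0%. A GC box was found in 8 of the 9 members with a promoter in the table, all but ERBB2, and in 42.6% of all promoters; this motif was added after the sequences had been seen. ERBB3 has no entry.

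Motifs of transcription factor families linked to these pathways were searched on both strands of the same windows. The FOXO motif GTAAACA was in none of the 9 windows and in 2.98% of all promoters, and the AP-1 motif TGAGTCA was in none and in 4.2%. The ETS motif CCGGAAGT was in 3.42% of all promoters and in 1 member, ERBB2, which carries it on both strands in a stretch of 21 bases, with the motif and its reverse complement in capitals.

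ERBB2: ACTTCCGGagtaaCCGGAAGT

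This stretch is chr17:39688067-39688087 on the plus strand of GRCh38.p14, 27 to 7 bases before the RefSeq start, and lies in the exon of a GENCODE 29 transcript. The motifs are letter matches and say nothing of binding in AGS cells.

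EGFR, the receptor for EGF and TGF-alpha, was lower in every treated group. The 4 control libraries, given here and below in the order of replicates 1 to 4, had 62.1, 46.6, 49.4 and 50.8 CPM. With PI103 they had 33.3, 29.7, 33.1 and 30.8 CPM, with PD0325901 23.9, 20.9, 13.7 and 18.5 CPM, and with oxozeaenol 24.8, 19.4, 19.8 and 20.04 CPM. The combination with oxozeaenol gave 26.99, 25.7, 25.4 and 25.3 CPM and that with PD0325901 gave 23.95, 19.9, 21.3 and 22.4 CPM. No treated library reached the lowest control library, and replicate 1 was the highest library in all 6 groups. The PI103 libraries were the highest treated ones and overlapped no other group.

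The log2 fold change of EGFR against control was -0.72 (SE 0.119, adjusted p = 1.62e-05) with PI103, -1.44 (SE 0.121, adjusted p = 2.25e-10) with PD0325901 and -1.31 (SE 0.121, adjusted p = 2.24e-09) with oxozeaenol. It was -1.01 (SE 0.12, adjusted p = 8.64e-08) with PI103 and oxozeaenol and -1.26 (SE 0.121, adjusted p = 1.41e-09) with PI103 and PD0325901. By mean the order was control, PI103, PI103 with oxozeaenol, PI103 with PD0325901, oxozeaenol and PD0325901, and the last 3 overlapped their neighbours. In GENCODE 29 on GRCh38, from which all gene positions here are taken, EGFR lies at chr7:55019021-55211628 on the plus strand, and 1.49% of its exons face the antisense gene EGFR-AS1.

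ERBB2, the receptor also called HER2, which has no ligand of its own and pairs with other family members, was higher with every treatment. Control libraries had 109, 112, 107 and 105 CPM and PI103 libraries 162, 176, 167 and 176 CPM. PD0325901 gave 152, 163, 146 and 136 CPM and oxozeaenol 138, 115, 127 and 132 CPM. The combination with oxozeaenol gave 161, 144, 158 and 152 CPM and that with PD0325901 204, 173, 179.9 and 163 CPM. All 20 treated libraries were above all 4 control libraries. The highest group was PI103 with PD0325901, which overlapped PI103 alone.

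The rises of ERBB2 were 0.66 (SE 0.0777, adjusted p = 1.15e-07) with PI103, 0.47 (SE 0.0776, adjusted p = 1.2e-05) with PD0325901 and 0.24 (SE 0.0775, adjusted p = 0.0105) with oxozeaenol on the log2 scale. In the combinations they were 0.51 (SE 0.0776, adjusted p = 4.05e-06) with oxozeaenol and 0.74 (SE 0.0778, adjusted p = 7.06e-09) with PD0325901. The oxozeaenol call was lost with only replicates 2 to 4 (adjusted p = 0.0831) and without the low-count filter (adjusted p = 0.0588). ERBB2 (chr17:39687914-39730426, plus strand) faces MIEN1 and PGAP3 over 7.41% of its exons, and whether the counting used strand is not given in the sources used here.

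ERBB3, a receptor for neuregulins with little kinase activity of its own and many docking sites for PI3 kinase, rose most with PI103. Control libraries had 41.5, 39.04, 42.9 and 38.5 CPM, and PI103 libraries had 86.7, 84.8, 87.9 and 92.2 CPM, apart from every other group. PD0325901 gave 46.5, 57.7, 43.8 and 45.7 CPM, where replicate 2 stood above the others, and oxozeaenol gave 44.2, 39.4, 44.6 and 47.7 CPM, which overlapped control. The combinations lay between control and PI103, at 60.2, 49.5, 59.5 and 64.9 CPM with oxozeaenol and 65.98, 62.9, 61.3 and 58.5 CPM with PD0325901, and overlapped each other.

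The log2 fold change of ERBB3 was 1.12 (SE 0.0889, adjusted p = 1.36e-10) with PI103, 0.53 (SE 0.0882, adjusted p = 1.43e-05) with PI103 and oxozeaenol, and 0.62 (SE 0.0883, adjusted p = 1.03e-06) with PI103 and PD0325901. With PD0325901 alone it was 0.26 (SE 0.0882, adjusted p = 0.0143), and without replicate 2 of that group 0.19 (adjusted p = 0.0549). With oxozeaenol alone ERBB3 was not called, at 0.12 (SE 0.0883, adjusted p = 0.273). The gene lies at chr12:56076799-56103505 on the plus strand.

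**Figure D2:**
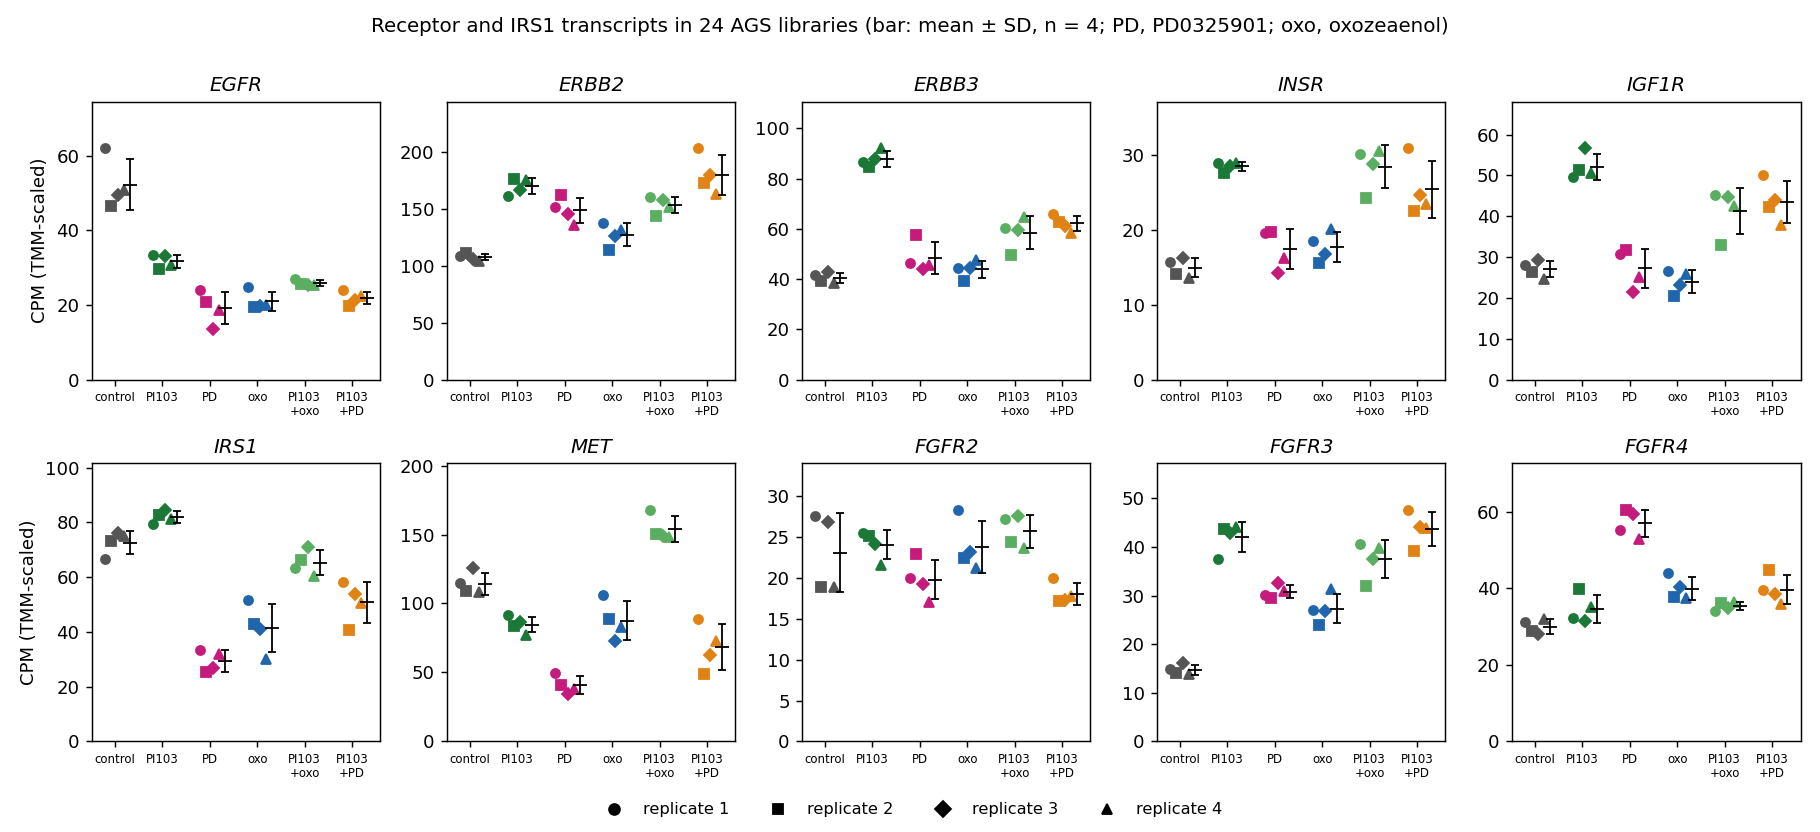
Each panel plots 1 member's CPM (vertical axis from 0) in the 24 libraries by group (horizontal axis), with points for libraries and bars for the mean and SD of 4. EGFR is highest in control, at 46.6 to 62.1 CPM, FGFR3 is lowest there, at 13.8 to 16.1 CPM, and MET is highest with PI103 and oxozeaenol, at 148 to 168 CPM.

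INSR and IGF1R, the receptors for insulin and for the insulin-like growth factors, both rose in the 3 groups that held PI103 and were not called with PD0325901 or oxozeaenol alone. Some other settings did call INSR with each of these agents alone, as given below. INSR had 15.7, 14.1, 16.3 and 13.6 CPM in control, 28.9, 27.7, 28.6 and 28.98 CPM with PI103 and 30.2, 24.3, 28.8 and 30.6 CPM with PI103 and oxozeaenol. With PI103 and PD0325901 it had 30.97, 22.5, 24.7 and 23.5 CPM, where replicate 1 was the highest. All 12 libraries with PI103 were above the 8 of the other single agents, which had 19.6, 19.7, 14.3 and 16.3 CPM with PD0325901 and 18.5, 15.7, 16.7 and 20.1 CPM with oxozeaenol. Both of these groups overlapped control.

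The log2 rise of INSR was 0.93 (SE 0.112, adjusted p = 1.37e-07) with PI103 alone, 0.93 (SE 0.112, adjusted p = 1.11e-07) in the combination with oxozeaenol and 0.77 (SE 0.111, adjusted p = 1.32e-06) in that with PD0325901. With PD0325901 alone the change was 0.22 (SE 0.112, adjusted p = 0.087), and it was called without control replicate 3 (0.30, adjusted p = 0.0352), without PD0325901 replicate 3 (0.31, adjusted p = 0.0211) and with upper-quartile scaling (0.32, adjusted p = 0.0197). Total counts (0.31, adjusted p = 0.0299) and a mean of at least 5 CPM (0.27, adjusted p = 0.0404) called it too. With oxozeaenol alone it was 0.25 (SE 0.112, adjusted p = 0.0642), and a fit with the batch number as a block called it (0.25, adjusted p = 0.0435). That call was also made without control replicate 3 (0.30, adjusted p = 0.0411) and without oxozeaenol replicate 2 (0.31, adjusted p = 0.0336). Upper-quartile scaling (0.31, adjusted p = 0.0253) and a mean of at least 5 CPM (0.30, adjusted p = 0.0277) made it as well. INSR lies at chr19:7112255-7294034 on the minus strand.

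IGF1R had 27.95, 26.4, 29.3 and 24.7 CPM in control, 49.7, 51.3, 56.7 and 50.7 CPM with PI103, 45.1, 33.1, 44.7 and 42.5 CPM with PI103 and oxozeaenol, and 50.1, 42.3, 43.9 and 37.8 CPM with PI103 and PD0325901. Its rises were 0.94 (SE 0.117, adjusted p = 2.55e-07), 0.61 (SE 0.117, adjusted p = 8.65e-05) and 0.69 (SE 0.117, adjusted p = 1.33e-05) on the log2 scale, in that order. The 3 groups with PI103 lay above all libraries of the other 3. PD0325901 gave 30.7, 31.8, 21.5 and 25.1 CPM and oxozeaenol 26.5, 20.5, 23.1 and 25.8 CPM, both overlapping the control range, with log2 fold changes of 0.01 (SE 0.117, adjusted p = 0.954) and -0.17 (SE 0.118, adjusted p = 0.221). The 95% interval was -0.23 to 0.25 with PD0325901 and -0.42 to 0.07 with oxozeaenol. IGF1R lies at chr15:98648539-98964530 on the plus strand.

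IRS1, which docks at the active insulin and IGF1 receptors and recruits PI3 kinase, did not rise with them by the test. Control libraries had 66.6, 73.1, 75.98 and 74.9 CPM and PI103 libraries 79.6, 82.8, 84.7 and 81.3 CPM, all 4 above control. The log2 fold change was 0.18 (SE 0.12, adjusted p = 0.227), with a 95% interval of -0.07 to 0.42. A fit on the control and PI103 libraries alone called it, at 0.18 (adjusted p = 0.0391).

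IRS1 fell with the other single agents, to 33.4, 25.5, 26.7 and 31.9 CPM with PD0325901 and 51.7, 42.9, 40.9 and 30.3 CPM with oxozeaenol. The lowest oxozeaenol library, replicate 4, lay within the PD0325901 range. The log2 fold changes were -1.31 (SE 0.123, adjusted p = 1.51e-09) and -0.81 (SE 0.121, adjusted p = 4.17e-06). With PI103 and PD0325901 IRS1 had 58.3, 40.6, 53.9 and 50.5 CPM, a change of -0.52 (SE 0.12, adjusted p = 0.000556), and with PI103 and oxozeaenol 63.4, 66.1, 71.1 and 60.3 CPM, a change of -0.16 (SE 0.12, adjusted p = 0.28) that was not called. IRS1 lies at chr2:226731317-226799759 on the minus strand. These are transcript levels, and the breakdown of the IRS1 protein was not measured.

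MET, the receptor for hepatocyte growth factor, fell with each single agent and with PI103 and PD0325901, and rose with PI103 and oxozeaenol. Control libraries had 115, 109, 126 and 108 CPM. PI103 gave 91.3, 83.7, 86.3 and 77.5 CPM, PD0325901 49.8, 40.7, 34.4 and 37.96 CPM and oxozeaenol 107, 88.5, 72.7 and 82.9 CPM. All 12 of these libraries were below control, those with PD0325901 the lowest. PI103 with PD0325901 gave 88.4, 48.9, 62.6 and 72.5 CPM and PI103 with oxozeaenol 168, 150.2, 149 and 148 CPM. The latter 4 libraries were above all 20 others.

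The log2 fold change of MET was -0.43 (SE 0.134, adjusted p = 0.00866) with PI103, -1.49 (SE 0.137, adjusted p = 1.17e-09) with PD0325901, -0.38 (SE 0.134, adjusted p = 0.0187) with oxozeaenol and -0.75 (SE 0.134, adjusted p = 2.8e-05) with PI103 and PD0325901. With PI103 and oxozeaenol it was 0.43 (SE 0.134, adjusted p = 0.00852). The oxozeaenol call was lost without control replicate 3 (-0.33, adjusted p = 0.0616), oxozeaenol replicate 3 (-0.31, adjusted p = 0.0755) or oxozeaenol replicate 4 (-0.36, adjusted p = 0.0506). Replicate 1 was the highest MET library in 5 of 6 groups and lay 0.21 above the group mean on average (log2 CPM), the widest such deviation of a batch among the members. MET lies at chr7:116672390-116798386 on the plus strand.

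Among the fibroblast growth factor receptors, whose FGF ligands guide growth and repair of epithelia, FGFR3 rose with every treatment, from 14.9, 14.1, 16.1 and 13.8 CPM in control to 37.6, 43.7, 42.9 and 44.1 CPM with PI103, 30.2, 29.5, 32.6 and 31.02 CPM with PD0325901 and 27.1, 23.98, 26.9 and 31.4 CPM with oxozeaenol. The combinations gave 40.7, 32.03, 37.6 and 39.8 CPM with oxozeaenol and 47.7, 39.3, 44.2 and 43.9 CPM with PD0325901. The lowest treated library was above the highest control library. The log2 rises were 1.51 (SE 0.092, adjusted p = 1.75e-12) with PI103, 1.07 (SE 0.0914, adjusted p = 3.04e-10) with PD0325901, 0.89 (SE 0.0914, adjusted p = 1.22e-08) with oxozeaenol, 1.35 (SE 0.0917, adjusted p = 8.24e-12) with PI103 and oxozeaenol, and 1.57 (SE 0.0921, adjusted p = 2.48e-13) with PI103 and PD0325901. FGFR3 had the largest rise of the members in all 5 comparisons. It lies at chr4:1793293-1808872 on the plus strand.

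FGFR4, whose endocrine ligand FGF19 acts in the gut and liver, was highest with PD0325901. Control libraries had 31.1, 28.9, 27.9 and 32.1 CPM and PD0325901 libraries 55.2, 60.5, 59.3 and 52.9 CPM, above every other library. Oxozeaenol gave 43.9, 37.7, 40.4 and 37.4 CPM and PI103 32.2, 39.7, 31.5 and 34.97 CPM, the latter overlapping control. The combinations gave 34.1, 36.04, 34.7 and 36.5 CPM with oxozeaenol and 39.5, 44.8, 38.4 and 35.9 CPM with PD0325901, both above control and overlapping each other.

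On the log2 scale FGFR4 rose by 0.93 (SE 0.0844, adjusted p = 9.09e-10) with PD0325901, 0.41 (SE 0.0842, adjusted p = 0.000232) with oxozeaenol, 0.24 (SE 0.0841, adjusted p = 0.0193) with PI103 and oxozeaenol, and 0.40 (SE 0.084, adjusted p = 0.000167) with PI103 and PD0325901. The rise with PI103, 0.21 (SE 0.0841, adjusted p = 0.043), was lost in 4 of the 8 fits without 1 library: without control replicate 2 (0.19, adjusted p = 0.102), control replicate 3 (0.17, adjusted p = 0.15), PI103 replicate 2 (0.13, adjusted p = 0.207) and PI103 replicate 4 (0.20, adjusted p = 0.0783). It was also lost without the low-count filter (adjusted p = 0.123), with only replicates 2 to 4 (adjusted p = 0.0602) and with only the groups compared (adjusted p = 0.055). The rise with PI103 and oxozeaenol was lost without control replicate 2 (0.22, adjusted p = 0.0505) or 3 (0.21, adjusted p = 0.0697), and without the low-count filter (0.19, adjusted p = 0.0985). FGFR4 lies at chr5:177086886-177098144 on the plus strand.

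FGFR2, a receptor that is amplified in some gastric cancers, was called in 1 of the 5 comparisons with control. Control libraries had 27.6, 18.9, 26.9 and 18.9 CPM, with replicates 1 and 3 well above replicates 2 and 4. Every treated group overlapped that range. PI103 with PD0325901 gave 19.96, 17.2, 17.3 and 17.8 CPM, and the other groups spanned 21.6 to 25.5 CPM with PI103, 17.1 to 22.9 CPM with PD0325901, 21.2 to 28.4 CPM with oxozeaenol and 23.6 to 27.6 CPM with PI103 and oxozeaenol. The only call was the fall with PI103 and PD0325901, -0.35 (SE 0.12, adjusted p = 0.0117). It was lost without control replicate 1 (-0.26, adjusted p = 0.0704) or 3 (-0.26, adjusted p = 0.0754). The call was also lost with only replicates 2 to 4 (-0.31, adjusted p = 0.053), upper-quartile scaling (-0.21, adjusted p = 0.116) and total counts (-0.23, adjusted p = 0.122). With PD0325901 alone the change was -0.22 (SE 0.12, adjusted p = 0.116), and it was called without control replicate 2 (-0.31, adjusted p = 0.0373) or 4 (-0.31, adjusted p = 0.0349). FGFR2 lies at chr10:121478334-121598458 on the minus strand.

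To compare levels between genes, CPM were divided by the length of each gene's joined GENCODE 29 exons in kilobases. In control MET had the highest level per kilobase, 16.3 ± 1.14 (SD, n = 4), followed by ERBB2 at 10.5 ± 0.291 and IRS1 at 7.297 ± 0.424. INSR was lowest, at 1.43 ± 0.121. ERBB2 was first with PI103, with PD0325901 and with both together, at 16.5 ± 0.688, 14.5 ± 1.07 and 17.4 ± 1.69, and MET was first with PI103 and oxozeaenol, at 21.9 ± 1.35. With oxozeaenol alone MET, at 12.5 ± 2.02, and ERBB2, at 12.4 ± 0.961, did not differ beyond their spread. EGFR went from 4.17 ± 0.545 in control to the lowest mean of the members in all 5 treated groups, with 1.54 ± 0.346 CPM per kilobase with PD0325901. Its libraries lay below those of every other member in both combinations, but overlapped those of INSR with each single agent. With oxozeaenol EGFR had 1.68 ± 0.202, INSR 1.698 ± 0.188 and IGF1R 1.72 ± 0.196 CPM per kilobase. The exon length counts all annotated transcripts and not the isoforms used in these cells.

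Each combination was compared with its single agents at their full concentrations. PI103 with oxozeaenol differed from PI103 in 3 members, 1 higher (MET) and 2 lower (ERBB3 and IGF1R), against 18.3% of all genes (9.39% higher, 8.92% lower). It differed from oxozeaenol in 7 members, all higher, against 14.9% of all genes (7.59% higher, 7.28% lower). With the batch number as a block, 5 members differed from PI103, with EGFR (-0.30, adjusted p = 0.0248) and IRS1 (-0.33, adjusted p = 0.0371) added. Without the block EGFR was at -0.30 (adjusted p = 0.0861) and IRS1 at -0.33 (adjusted p = 0.0545). Upper-quartile scaling (adjusted p = 0.0404) and DESeq2 (adjusted p = 0.0433) also called IRS1. So did no low-count filter (adjusted p = 0.0426) and a mean of at least 5 CPM (adjusted p = 0.0478). Only the groups compared called both EGFR (adjusted p = 0.00216) and IRS1 (adjusted p = 0.000859). Over all 13947 genes, that block raised the number called against PI103 from 2553 to 3347. The block also called EGFR higher than with oxozeaenol (0.30, adjusted p = 0.0246), as did leaving out replicate 1 of oxozeaenol (0.39, adjusted p = 0.0276).

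MET was the member called above both single agents: 0.86 (SE 0.135, adjusted p = 4.44e-05) against PI103, 0.81 (SE 0.134, adjusted p = 0.000212) against oxozeaenol and 0.84 (SE 0.113, adjusted p = 3.23e-05) against the mean of the 2 on the log2 scale. Without the libraries of replicate 1 these differences were 0.85, 0.88 and 0.87. Among all 13947 genes, 106 were called above both agents of this combination and 39 below both. Against the mean of the single agents, 2 members were called, MET and INSR, both higher, where 3.98% of all genes were called (2.88% higher, 1.10% lower). INSR lay 0.34 (SE 0.0945, adjusted p = 0.0393) above the mean, a call that was lost in 9 of 12 fits without 1 library, with adjusted p from 0.0556 to 0.156. Its difference from PI103 was -0.0025, with a 95% interval of -0.23 to 0.22.

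The 7 members higher with PI103 and oxozeaenol than with oxozeaenol were MET, IGF1R (0.78, adjusted p = 7.28e-05), INSR (0.68, adjusted p = 0.000176), IRS1 (0.65, adjusted p = 0.000658), FGFR3 (0.46, adjusted p = 0.00122), ERBB3 (0.41, adjusted p = 0.0024) and ERBB2 (0.27, adjusted p = 0.0199). That of ERBB2 was lost without oxozeaenol replicate 2 (0.22, adjusted p = 0.0948) or 3 (0.26, adjusted p = 0.0521), or without replicate 1 (0.24, adjusted p = 0.0848) or 3 (0.25, adjusted p = 0.0623) of the combination. The difference of ERBB3 from PI103 was -0.59 (SE 0.088, adjusted p = 2.48e-05). The lower IGF1R, -0.33 (SE 0.116, adjusted p = 0.0455), was lost in 7 of 8 fits without 1 library, with adjusted p up to 0.178 without replicate 2 of the combination. It was also lost with total counts (adjusted p = 0.0592), at a mean of at least 5 CPM (adjusted p = 0.0504) and with only replicates 2 to 4 (adjusted p = 0.0646).

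The combination of PD0325901 and PI103 had 4 members lower than PI103 alone and none higher, against 38.7% of all genes (18.8% higher, 19.9% lower). They were IRS1 at -0.69 (SE 0.121, adjusted p = 7.04e-05), EGFR at -0.54 (SE 0.12, adjusted p = 0.000917), ERBB3 at -0.50 (SE 0.0879, adjusted p = 7.71e-05) and FGFR2 at -0.42 (SE 0.12, adjusted p = 0.00748). MET was lower by the block (-0.31 without it, adjusted p = 0.0649, and -0.33 with it, adjusted p = 0.0146). Without replicate 1 of the combination, the library in which MET was highest, 7 members were called, with MET at -0.47 (adjusted p = 0.00545), IGF1R at -0.34 (adjusted p = 0.0323) and INSR at -0.28 (adjusted p = 0.0455) added. That fit called 5308 of 14052 genes. FGFR4 was called higher without PI103 replicate 2 (0.27, adjusted p = 0.0186) or replicate 4 of the combination (0.24, adjusted p = 0.0381), and with upper-quartile scaling (0.26, adjusted p = 0.0161).

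Against PD0325901 the combination differed in 8 members, 7 higher and 1 lower, where 18.1% of all genes were called (8.06% higher, 10.0% lower). IRS1 (0.79, adjusted p = 7.02e-05), MET (0.74, adjusted p = 0.000482), IGF1R (0.68, adjusted p = 0.000282), INSR (0.54, adjusted p = 0.00147), FGFR3 (0.51, adjusted p = 0.000366), ERBB3 (0.36, adjusted p = 0.00598) and ERBB2 (0.27, adjusted p = 0.0162) were higher. FGFR4 was lower (-0.52, adjusted p = 0.000116). The ERBB2 difference was lost without PD0325901 replicate 3 (0.26, adjusted p = 0.0535) or 4 (0.23, adjusted p = 0.0615) or replicate 1 of the combination (0.20, adjusted p = 0.0887), and with only replicates 2 to 4 neither ERBB2 (adjusted p = 0.142) nor ERBB3 (adjusted p = 0.1) was called. No member was called in the same direction against both single agents. Among all 13947 genes, only 298 were called above both and 333 below both, so that none of 10 members is near the background.

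Against the mean of PI103 and PD0325901, FGFR3 alone was called, at 0.28 (SE 0.0766, adjusted p = 0.0104), where 22.0% of all genes were called (10.8% higher, 11.1% lower). ERBB2, at 0.18 (adjusted p = 0.0573), and FGFR2, at -0.27 (adjusted p = 0.0607), missed the threshold. The block added ERBB2 (0.17, adjusted p = 0.0396) and FGFR2 (-0.28, adjusted p = 0.017), and with only replicates 2 to 4 no member was called (FGFR3 0.21, adjusted p = 0.122). Upper-quartile scaling (adjusted p = 0.0144), total counts (0.0309), a mean of at least 5 CPM (0.0209) and DESeq2 (0.0342) also called ERBB2. Only the groups compared also called FGFR2 (adjusted p = 0.0337). Over all genes, the block called 4090 of 13947 and the fit on replicates 2 to 4 called 1524 of 13979. Leaving out 1 library added FGFR2 (without PI103 replicate 4, PD0325901 replicate 4 or replicate 1 of the combination, adjusted p = 0.0478, 0.0406 and 0.0468), ERBB2 (without PD0325901 replicate 2 or replicate 4 of the combination, adjusted p = 0.0304 and 0.0366) or MET (without replicate 2 of the combination, adjusted p = 0.0391). No group received an inhibitor alone at 50% of its concentration, so the mean of the single agents at full concentration was the reference.

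**Figure D3:**
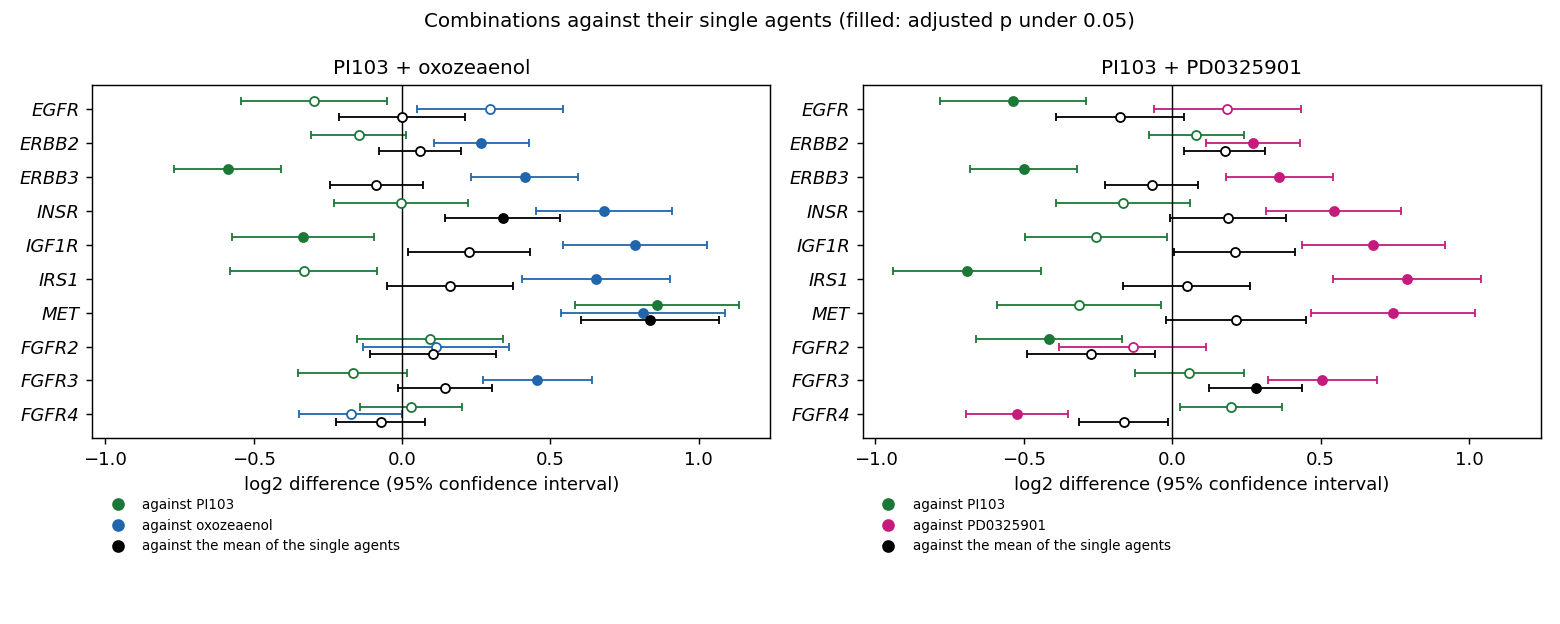
The log2 difference of each combination from its single agents and from their mean (horizontal axis, with the 95% confidence interval) is plotted by member, with filled points for an adjusted p under 0.05. In the panel of PI103 with oxozeaenol the 3 MET points lie at 0.86, 0.81 and 0.84, all filled and to the right of 0, while other members, such as IRS1 and FGFR3, lie to the left of 0 against PI103 and to the right against oxozeaenol.

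The single agents were also compared with each other. PI103 and PD0325901 differed in 9 members, 8 higher and 1 lower with PI103, against 44.5% of all genes (21.7% higher, 22.9% lower). The widest gaps were those of IRS1 at 1.48 (SE 0.123, adjusted p = 4.56e-10) and MET at 1.06 (SE 0.136, adjusted p = 6.24e-07), and FGFR4 was the member lower with PI103, at -0.72 (SE 0.0841, adjusted p = 1.31e-07). That of ERBB2, 0.19 (SE 0.0774, adjusted p = 0.0477), was lost in 7 of 8 fits without 1 library, with adjusted p from 0.057 to 0.154, and with RLE size factors (adjusted p = 0.0587). Upper-quartile scaling (adjusted p = 0.0732), total counts (adjusted p = 0.106) and no low-count filter (adjusted p = 0.101) lost it too. So did replicates 2 to 4 only (adjusted p = 0.0606) and only the groups compared (adjusted p = 0.0825). FGFR2 missed the threshold at 0.28 (SE 0.12, adjusted p = 0.0565) and passed it with the block (0.28, adjusted p = 0.0179) and without PI103 replicate 4 (0.33, adjusted p = 0.0419) or PD0325901 replicate 2 (0.33, adjusted p = 0.0403).

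PI103 and oxozeaenol differed in 7 members, all higher with PI103, against 43.1% of all genes (20.6% higher, 22.5% lower). IGF1R led at 1.12 (SE 0.118, adjusted p = 3.78e-08), followed by ERBB3 at 1.00 (SE 0.0888, adjusted p = 2.04e-09) and IRS1 at 0.99 (SE 0.122, adjusted p = 4.13e-07). FGFR4 missed the threshold at -0.20 (adjusted p = 0.0519) and was called lower with the block (-0.21, adjusted p = 0.0378), with DESeq2 (-0.20, adjusted p = 0.0443), and without PI103 replicate 2 (-0.28, adjusted p = 0.0122) or oxozeaenol replicate 2 (-0.23, adjusted p = 0.0453) or 4 (-0.23, adjusted p = 0.0418). MET differed by -0.05, with a 95% interval of -0.32 to 0.23.

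Oxozeaenol and PD0325901 differed in 4 members, against 28.5% of all genes (13.4% higher, 15.1% lower). MET, at 1.11 (SE 0.136, adjusted p = 1.92e-06), and IRS1, at 0.50 (SE 0.122, adjusted p = 0.00362), were higher with oxozeaenol. FGFR4, at -0.52 (SE 0.0839, adjusted p = 7.51e-05), and ERBB2, at -0.22 (SE 0.0775, adjusted p = 0.032), were lower. The ERBB2 call was lost without PD0325901 replicate 2 (-0.21, adjusted p = 0.0894) or oxozeaenol replicate 2 (-0.17, adjusted p = 0.13) or 3 (-0.22, adjusted p = 0.0669). With the block FGFR2 was called too, higher with oxozeaenol (0.26, adjusted p = 0.0396), and without oxozeaenol replicate 4 FGFR3 was called lower (-0.25, adjusted p = 0.0486). Doses of the 3 inhibitors differ, and their equivalence was not measured.

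For each member the 2 genes with the most similar pattern over the 24 libraries were sought among 10039 genes, by the root mean square difference of log2 CPM centred on each gene's mean. EGFR was nearest to MICAL2 (0.106) and KLF3 (0.153), against an SD of EGFR over the libraries of 0.526. ERBB2 was nearest to DDR1 (0.0817), itself a receptor tyrosine kinase that binds collagen, and to EPB49 (0.0852), with an SD of 0.268. ERBB3 was nearest to RALGPS1 (0.117) and AXIN2 (0.148), INSR to RNF43 (0.117) and CNNM3 (0.142), and IGF1R to MARCH8 (0.135) and C7orf29 (0.154). IRS1 was nearest to TNFRSF21 (0.173) and ARAP2 (0.207). MET had the most distant neighbours, SPAG9 (0.278) and SLC9A7 (0.281), with the widest SD of the members, 0.644. FGFR2 was nearest to STARD7 (0.109) and SLC20A2 (0.121), FGFR3 to WDR81 (0.157) and PPAP2B (0.161), and FGFR4 to ARPC1B (0.106) and AP2A1 (0.111). All 24 libraries enter each value, so genes that move with the same treatments come out as near.

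Of 31 other receptor tyrosine kinases outside the Eph family, 15 were expressed highly enough to test. The shares called over all genes, given above for each treatment, serve as the background of this and the following lists. With PI103, 5 were called higher and 3 lower, with PD0325901 4 and 3, with oxozeaenol 4 and 2, and in the combinations 6 and 4 with oxozeaenol and 6 and 3 with PD0325901. Their median log2 fold changes were 0.13, -0.01, 0.04, 0.11 and 0.07, beside all-gene medians from -0.02 to 0.02. DDR1 rose by 0.77 with PI103 alone, 0.48 with PD0325901 alone, 0.21 with oxozeaenol alone, 0.54 in the combination with oxozeaenol and 0.68 in that with PD0325901. PTK7, a catalytically inactive receptor of Wnt signalling, went from 116 ± 7.77 CPM in control to 189 ± 8.395 CPM with PI103 and 189 ± 14.7 CPM with PD0325901 (SD, n = 4), with adjusted p of 9.38e-08 and 5.88e-08.

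Among 26 adaptors and docking proteins, 24 were tested. With PI103 7 rose and 7 fell, with PD0325901 9 and 7, and with oxozeaenol 8 and 9. In the combinations 8 rose and 8 fell with oxozeaenol, and 11 rose and 8 fell with PD0325901. The list medians were -0.002, 0.04, -0.07, -0.09 and 0.15. GRB10, an adaptor that dampens insulin and IGF1 receptor signalling and is a substrate of mTOR, fell from 139 ± 6.402 CPM in control to 42.02 ± 5.65 CPM with PI103 (SD, n = 4, adjusted p = 2.8e-12). Its log2 fold changes were -1.72 with PI103 alone, -0.71 with PD0325901 alone, -0.76 with oxozeaenol alone, -1.51 in the combination with oxozeaenol and -1.62 in that with PD0325901. SHC2, a member of the SHC adaptor family, rose in all 5 comparisons, from 2.902 ± 0.547 CPM in control to 23.4 ± 5.76 CPM with PI103 and PD0325901 (SD, n = 4, adjusted p = 1.55e-12). IRS2, the relative of IRS1 that FOXO factors induce in liver, and IRS4 are listed at 0 in all 24 libraries. AREG, INS, FGF3, FGF10 and FGF16 are also listed at 0, and no level is given for these 7 genes.

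All 22 receptor-level inhibitors and turnover factors were tested, and more fell than rose in each comparison. With PI103 6 rose and 11 fell, with PD0325901 4 and 14, with oxozeaenol 3 and 11, and in the combinations 5 and 12 with oxozeaenol and 5 and 11 with PD0325901. The medians were -0.30, -0.30, -0.25, -0.27 and -0.25. ERRFI1, also called MIG6, which binds and blocks the EGFR kinase domain, had 1676 ± 259.8 CPM in control. It had 258 ± 30.1 CPM with PI103, 93.1 ± 22.99 CPM with PD0325901 and 130.3 ± 48.98 CPM with oxozeaenol (SD, n = 4), with log2 fold changes of -2.70, -4.17 and -3.69 (adjusted p = 1.26e-09, 1.78e-12 and 1.87e-11). SOCS3, which limits cytokine and insulin receptor signalling, rose in all 5 comparisons, by 1.12 with PI103 alone, 0.85 with PD0325901 alone, 0.83 with oxozeaenol alone, 1.51 in the combination with oxozeaenol and 1.78 in that with PD0325901. EGFR transcript and that of its inhibitor ERRFI1 were both lower in every treated group.

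Of 33 ligands of the member receptors, 11 were tested. With PI103 2 rose and 5 fell, with PD0325901 3 and 4, with oxozeaenol 3 and 4, and in the combinations 2 and 4 with oxozeaenol and 5 and 4 with PD0325901. The medians were -0.24, 0.34, -0.30, -0.10 and 0.67. HBEGF, a ligand of EGFR and ERBB4, fell from 84.4 ± 16.5 CPM to 9.92 ± 1.001 CPM with PI103 (SD, n = 4), with log2 fold changes of -3.09 with PI103 alone, -2.40 with PD0325901 alone, -2.65 with oxozeaenol alone, -2.63 in the combination with oxozeaenol and -2.52 in that with PD0325901. TGFA, which also binds EGFR, changed by -0.83 with PI103 alone, -1.04 with PD0325901 alone, -0.30 with oxozeaenol alone, -0.55 in the combination with oxozeaenol and -0.96 in that with PD0325901, all called. Of 7 genes for IGF binding proteins and the IGF2 receptor, 4 were tested, and 2 or 3 rose in each comparison. IGFBP4, named after its values were seen, fell with PD0325901 (-0.67), oxozeaenol (-0.36) and PI103 with PD0325901 (-0.60), and no gene of the list fell in the other 2 comparisons. IGFBP6, which prefers IGF2, rose by 1.53 with PI103 alone, 0.42 with PD0325901 alone, 0.64 with oxozeaenol alone, 1.47 in the combination with oxozeaenol and 1.12 in that with PD0325901, and IGFBP2 rose from 8.59 ± 1.35 CPM in control to 18.3 ± 3.44 CPM with PD0325901 (SD, n = 4, adjusted p = 8.05e-07).

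The FOXO factors themselves were tested in 3 genes. FOXO1 had 9.89 ± 1.12 CPM in control and 15.3 ± 0.635 CPM with PI103 (SD, n = 4, adjusted p = 2.01e-05), and fell by 0.56 with PD0325901 and by 0.80 with oxozeaenol on the log2 scale (adjusted p = 7.05e-05 and 1.12e-06). It was not called in the combinations with oxozeaenol (-0.08, adjusted p = 0.539) and with PD0325901 (-0.07, adjusted p = 0.565). FOXO3 was lower in all 5 comparisons, with log2 fold changes of -0.63 with PI103 alone, -0.66 with PD0325901 alone, -1.08 with oxozeaenol alone, -0.86 in the combination with oxozeaenol and -0.65 in that with PD0325901. FOXO4, named after its values were seen, had log2 fold changes of 1.38 with PI103 alone, 1.16 with PD0325901 alone, -0.52 with oxozeaenol alone, 0.42 in the combination with oxozeaenol and 1.66 in that with PD0325901, all called except that in the combination with oxozeaenol (adjusted p = 0.067). Transcript levels do not show where the FOXO proteins were in the cell.

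**Figure D4:**
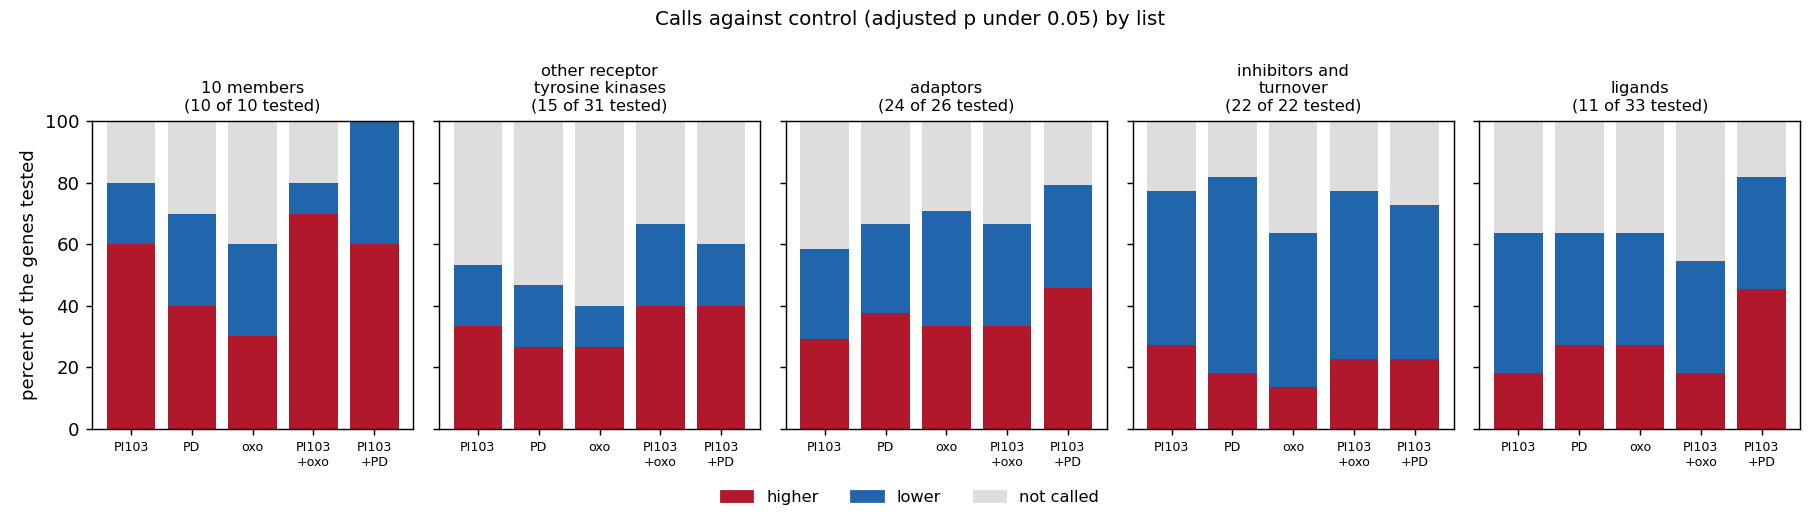
The share of tested genes called higher, lower or not called against control (vertical axis, percent) is stacked for each treatment in 5 lists: the 10 members, other receptor tyrosine kinases, adaptors, inhibitors and turnover factors, and ligands. More inhibitors fell than rose with each treatment (11 against 6 of 22 with PI103), while more members rose than fell with PI103 (6 against 2 of 10), with PD0325901 (4 against 3) and in both combinations, and 3 rose and 3 fell with oxozeaenol.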

How the data were processed

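RNA was sequenced from 24 AGS libraries, made with a stranded mRNA kit per the labels' protocols. The authors deposited raw counts, as whole numbers by gene symbol, with GRCh38 as the build per the submitters' processing notes. The aligner, the counting program and the annotation are not given in the sources used here. Groups came from the sample titles, since the treatment field of later replicates numbers the compound names upward. All 24 columns were mapped, 0 were left over, and 5 rows of unassigned reads entered neither totals nor tests (reads with no feature were 4.24% to 8.57% of a library).

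The 10 members and all gene lists were chosen with earlier results of these data known. Of 23368 genes, 3199 had no count, and filterByExpr kept 13947 with 99.989% of the counts. After TMM scaling these were fitted in edgeR 4.0.16 (R 4.3.3) with 1 coefficient per group over all libraries; the common biological coefficient of variation was 0.131. The 14 comparisons used the two-sided quasi-likelihood test, adjusted by Benjamini-Hochberg over all genes tested, with calls under 0.05. SE is the size of a log2 fold change over the root of its F value, and 95% intervals use the t quantile.

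Genes named are the 10 members, the 2 genes of each list with the smallest adjusted p at a mean of at least 5 CPM, IRS2, and the nearest genes in pattern. The batch in the labels equals the replicate number, which pairs the libraries. Over 60 pairs of the same number in different groups, deviations from the group mean correlated by 0.12 on average, against -0.04 over 180 other pairs. Alternatives were other scalings, filters, DESeq2 1.42.0, the block, the groups of a comparison alone, and each library left out. Leaving out replicate 1 of every group was added after seeing the data. The test was tested on simulated data for PI103 against control. It recovered 46 of 100 changes of 0.5 and 81 of 100 changes of 1 on the log2 scale, and 7 of 134 calls were false. The changed genes were drawn at random from the genes tested, whatever their counts, and all others were left unchanged. In the data 51.4% of genes were called with PI103, and the p-value needed for a call depends on that share. Recovery of changes in the members was therefore not measured. A change that was not called may still be present. GENCODE 29 gave gene positions and exon lengths, and RefSeq of GRCh38.p14 the promoters.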

Additional observations from a re-analysis of the deposited data

Results flagged for a closer look

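In 2 of 60 groups of 4 libraries, 1 library lay far from the other 3 by Dixon's test, in which the gap to the nearest library is divided by the range, and chance alone flags about 1 group in 20. EGFR with oxozeaenol had 24.81 CPM in replicate 1, against 19.44 to 20.04 CPM in replicates 2 to 4. MET with PI103 and oxozeaenol had 168 CPM in replicate 1, against 148 to 150.2 CPM in the others. Both libraries carry the batch number 1, in which EGFR and MET were on average 0.186 and 0.209 above their group means (log2 CPM), and the part of the batch in these values was not tested. Without the libraries of batch 1, MET with PI103 and oxozeaenol still lay 0.85 above PI103 and 0.88 above oxozeaenol on the log2 scale.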

How the results depend on the processing

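Of 1260 member values under 9 other settings, 1188 kept direction and side of the threshold, 26 lost the call, 37 gained it and 9 changed sign; of 1200 values without 1 library, 1099 kept both, 45 lost the call, 24 gained it and 32 changed sign. Sign changes, on log2 values near 0, were IGF1R with PD0325901 against control (-0.0111 without the low-count filter, -0.0387 with replicates 2 to 4 only), INSR with PI103 and oxozeaenol against PI103 (0.0038 at a mean of at least 5 CPM), FGFR3 with PI103 and PD0325901 against PI103 (-0.0263 with replicates 2 to 4 only), EGFR with PI103 and oxozeaenol against the mean (-0.0146 without the filter, -9e-04 with only the groups compared), MET with PI103 against oxozeaenol (0.031 with replicates 2 to 4 only), and INSR with oxozeaenol against PD0325901 (-0.0065 with upper-quartile scaling, -0.0311 with total counts only); the cause was not tested. Leaving out 1 library changed signs in EGFR (-5e-04 to 0.2271 oxozeaenol against PD0325901; -0.0187 to 0.0544 PI103 and oxozeaenol against the mean), FGFR2 (-0.0583 to 0.1449 oxozeaenol and -0.0248 to 0.1596 PI103 against control; -0.033 to 0.1138 PI103 against oxozeaenol), FGFR4 (-0.0085 to 0.1054 PI103 and oxozeaenol against PI103), IGF1R (-0.0481 to 0.1079 PD0325901 against control), INSR (-0.0567 to 0.0869 oxozeaenol against PD0325901; -0.0372 to 0.0669 PI103 and oxozeaenol against PI103), IRS1 (-0.0269 to 0.1428 PI103 and PD0325901 against the mean) and MET (-0.1272 to 0.0554 PI103 against oxozeaenol). Members called moved by over 1.5 times in 4 comparisons. PI103 and oxozeaenol against PI103 gave 5 in place of 3 with the replicate block and with only the groups compared. Over all genes, 3347 of 13947 and 4088 of 13225 were called in these 2 settings, in that order. PI103 and oxozeaenol against the mean gave 1 in place of 2 with total counts, without the filter and with replicates 2 to 4 only, and 1 to 2 without 1 library. Over all genes, 516 of 13947 were called with total counts, 438 of 20169 without the filter and 162 of 13979 with replicates 2 to 4 only. PI103 and PD0325901 against the mean gave 2 in place of 1 with upper-quartile scaling, total counts, a mean of at least 5 CPM, DESeq2 and only the groups compared, 3 with the replicate block, 0 with replicates 2 to 4 only, and 1 to 2 without 1 library. Over all genes, 3018 of 13947 were called with upper-quartile scaling and 2825 of 13947 with total counts. The calls were 2420 of 10044 at a mean of at least 5 CPM, 3439 of 13946 with DESeq2 and 2654 of 13627 with only the groups compared. The replicate block called 4090 of 13947 and replicates 2 to 4 only called 1524 of 13979. PI103 and PD0325901 against PI103 gave 4 to 7 without 1 library, the 7 without replicate 1 of the combination, where 5308 of 14052 genes were called. The replicate block changed no calls other than those given with the results. Total counts and upper-quartile scaling moved the median of all genes by 0.13 and 0.14 (log2) for PI103 and PD0325901 against control, where the fall of FGFR2 lost its call (-0.23 and -0.21). With 4 libraries a group the SE of a member's log2 fold change against control was 0.0775 to 0.137.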
